A study of Caenorhabditis elegans with 16 samples.

Results

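*osm-3* mutants differed from WT animals in many transcripts whether or not they had been exposed to tunicamycin (TM), a drug that blocks N-glycosylation and stresses the endoplasmic reticulum (ER). The question here was which genes differed between the genotypes in the same direction on vehicle and under TM, with no difference between the treatments past the threshold. They were sought by comparing the 8 libraries of *osm-3* mutants with the 8 libraries of WT animals, with treatment as a factor, among genes that averaged 1 log2 unit or more over the table's minimum. A gene was called shared where the genotype effect over both treatments, the difference on vehicle and the difference under TM each had an adjusted p under 0.05, both differences had the same sign, and the unadjusted p of the interaction was 0.05 or more. By this rule 307 of the 4115 genes tested were shared, of 8348 entries listed.

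Whole animals were used, of the wild-type strain N2 (WT) or carrying *osm-3(dh441)IV*, an allele with a premature stop codon that came from a mutagenesis screen for TM resistance. Larvae that had hatched within a short window were grown to day 1 of adulthood, moved to vehicle plates or plates with 10 µg/mL TM, and collected after 6 hr. Each of the 4 groups (WT vehicle, *osm-3* vehicle, WT TM and *osm-3* TM) had 4 biological replicates. The mutant is represented by 1 allele, so any other variant of that strain cannot be told apart from the loss of OSM-3, and *osm-3* itself was not analysed here. The values used here covered 7648 of 8316 annotated protein-coding genes whose sequence name sorts before F46 (92.0%) but 5 of 11669 with a later one, so every count of genes tested, by family, list or chromosome, is a count within that portion of the genome.

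OSM-3 is a kinesin-2 motor that carries intraflagellar transport (IFT) cargo along the outer segments of sensory cilia. Cilia at the nose and tail tips of *C. elegans* expose amphid and phasmid neurons to the environment, and animals that lack these outer segments do not take up fluorescent dye (Dyf). Dyf mutants are known for altered chemosensation, and several of them live long.

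Libraries held 4173301 to 8144875 reads on named genes. The libraries of the genotypes did not overlap on the first principal component within either treatment (43.3% of the variance, WT −14.4 to −3.5, *osm-3* −0.8 to 18.7). On it, *osm-3* TM replicate 4 (0.6) and *osm-3* vehicle replicate 4 (−0.8) lay nearest to the WT libraries. WT TM replicate 4 had reads on 8231 genes against 7094 to 7726 in the other libraries, and on genes with 5 or fewer reads in all other libraries together it had a mean of 5.53 reads per gene against 1.14 to 1.79 elsewhere. Without both TM libraries numbered 4, a choice made after seeing the data, 306 genes were shared, including 250 of the 307.

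The genotype effect over both treatments passed the threshold in 1250 of 4115 genes (30.4%), 539 higher (13.1%) and 711 lower (17.3%) in *osm-3* mutants, by limma with Benjamini-Hochberg adjustment. The vehicle and TM libraries of a genotype that carry the same number deviated together from their group means (correlation 0.25 to 0.58 in WT and 0.33 to 0.86 in *osm-3*, 4 pairs each), so the 8 libraries of a genotype are not 8 independent samples. With the pairs of libraries as a replicate block with an estimated correlation, 761 genes passed (399 higher, 362 lower), and with 1 mean per pair, 4 against 4, 673 passed (388 higher, 285 lower). With each library centred on its median, 588 genes were higher and 511 lower, so the balance of directions depends on the scaling. The median difference over all genes was −0.08 log2 units. Unless stated, SEs and adjusted p-values of single genes below come from limma without pairs, which treats the libraries as independent.

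On vehicle 438 genes (10.6%) differed between the genotypes and under TM 792 (19.2%). They had 332 genes in common with the same sign, which is 75.8% of the vehicle list and 41.9% of the TM list. The comparisons share no library, but they are not independent, since same-numbered vehicle and TM libraries of a genotype deviated together, and with the pairs as a replicate block with an estimated correlation 282 genes met the shared rule. Of the genes called in both, *ckb-2*, a choline kinase gene, was the 1 gene called in opposite directions.

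Of the 332, 307 met the shared rule (7.46% of the genes tested), 185 higher (4.50%) and 122 lower (2.96%) in *osm-3* mutants. In 246 of them the 4 *osm-3* and the 4 WT libraries did not overlap in either treatment, against 385 of all genes tested (9.36%). The TM difference was a median of 1.06 times the vehicle difference (quartiles 0.91 and 1.2, range 0.51 to 1.87), a ratio that the rule itself holds near 1. A missed threshold of the interaction does not show equality, and its 95% interval had a median half-width of 0.29 log2 units. In 249 of the 307 genes this interval lay within the size of the mean difference on either side of 0, while in 33 it lay within a band 50% as wide. The other 25 genes of the 332 were outside the rule through an unadjusted interaction p under 0.05. They ran from *gale-1*, far outside it (−0.32 log2 units on vehicle and −1.84 under TM, interaction −1.53, adjusted p = 4.3e-06 by limma), to *col-39*, just outside it (0.74 and 1.43, interaction 0.69). *col-39* and the next 2 genes were named after their values were seen. The 25 include *catp-3*, a P-type ATPase gene with the highest mean difference of all genes tested (2.38 log2 units, 2.80 on vehicle and 1.97 under TM), and the collagen gene *col-81* (1.80 and 2.46).

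Shared status depended on the setting in many of the genes described below. Of the 107 shared genes examined singly, 32 met the shared rule in all of the 31 alternatives that tested them and 75 missed it in at least 1. *che-3*, *che-11*, *nas-9*, *hach-1*, *amt-4* and *ceh-43* were among the 32. *col-139*, *msp-55* and *msd-4* missed it without *osm-3* TM replicate 4, *fipr-22* and *nlp-29* without WT TM replicate 4, and *pgp-14* without *osm-3* vehicle replicate 4. *asp-12* missed it when WT vehicle replicate 4 or WT TM replicate 2 was left out, and in 2 forms of the replicate block. *pgp-9* and *pmk-1* missed it in 5 of the 16 settings that leave out 1 library, each time a vehicle library. Other genes met the rule in fewer settings. *col-161* met it in 10 of 31 alternatives, *pals-15* in 11 of 30 and *akt-2* in 12 of 30. *hil-1* and *nlp-31* met it in 14 of 30 and *fbxa-153* in 15 of 30. All of these kept the genotype effect over both treatments. The filter used the mean over all libraries, so a gene could pass it through the genotype in which it was higher. *che-11*, *pals-32*, *spe-18* (listed as *F32A11.3*) and *sdz-8* had both WT group means less than 1 log2 unit above the minimum. *math-14* had both *osm-3* group means that low.

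**Figure D1:**
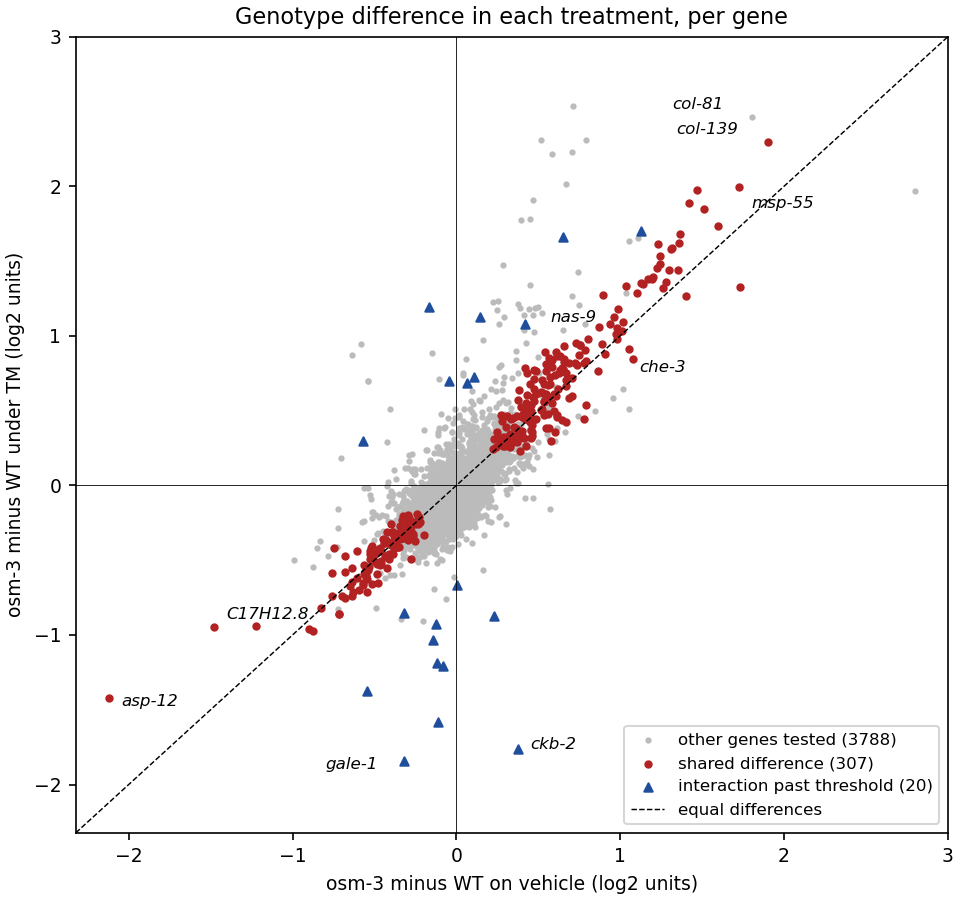
Each point is 1 of the 4115 genes tested, with the difference *osm-3* minus WT on vehicle on the x axis and under TM on the y axis, both in log2 units. Red points are the 307 shared genes, blue triangles the 20 genes whose interaction passed the threshold, grey points all others, and the dashed line marks equal differences. The shared genes lie along the line in both directions, from *asp-12* to *col-139*, while *gale-1* and *ckb-2* lie far below it.

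Higher genes had the larger differences. The median was 0.58 log2 units among the 185 higher and −0.42 among the 122 lower genes, and 34 genes rose by over 1 log2 unit while 3 (*asp-12*, *C17H12.8* and *dod-24*) fell by as much. These log2 values are variance-stabilized, which shrinks differences of weakly expressed genes. Levels below are therefore given as normalized counts (reads divided by the library's size factor), and folds are ratios of group mean normalized counts. Counts by list or family below compare with 13.1% higher, 17.3% lower and 7.46% shared over all genes tested.

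Sperm genes were among the strongest increases. Of the 12 genes at the top, 5 belonged to the *msp-* family or the sperm list, as did 12 of the 34 that rose by over 1 log2 unit. The top 12 in each direction were taken from genes whose libraries did not overlap, so their separation was fixed by that choice. The major sperm proteins (MSPs) build the cytoskeleton of the crawling nematode sperm and also signal to oocytes. All 9 *msp-* genes that were tested rose and were shared, with a median difference of 1.24 log2 units and a TM to vehicle ratio between 1.05 and 1.43. Their near-identical sequences share reads, so they do not count as 9 separate observations.

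*msp-55* (IV:5055631 to 5056014, build WBcel235) had normalized counts of 455, 296, 392 and 303 in WT vehicle and 2046, 1230, 1945 and 1298 in *osm-3* vehicle libraries. Under TM it had 243, 306, 228 and 267 in WT and 2229, 1792, 1502 and 960 in *osm-3* libraries. The *osm-3* libraries were higher by 4.51-fold on vehicle and 6.21-fold under TM in the means (1.86 ± 0.13 log2 units, SE, adjusted p = 1.3e-08 by limma). *osm-3* TM replicate 4 was the lowest of its group, here and in *msp-19* (4.87-fold and 5.84-fold) and *msp-77* (4.73-fold and 6.04-fold).

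Of 11 tested genes of the sperm list, 7 rose and all 7 were shared. They were *msd-1*, *msd-2* and *msd-4*, which encode proteins with an MSP domain, the nematode-specific *nspd-3*, *nspd-5* and *nspd-6*, and *ssp-9*. *msd-4* had 407, 231, 337 and 252 normalized counts in WT vehicle against 1328, 974, 1308 and 848 in *osm-3* vehicle libraries, and 191, 329, 241 and 228 against 1923, 1843, 1314 and 730 under TM. Its folds were 3.64 and 5.88. The sperm transcription regulator *spe-44* (−0.14), the protease inhibitor gene *swm-1* (0.15), *cpb-1* (0.03) and *clec-63* (−0.23) did not pass the threshold.

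Outside these lists, *sss-1* and *gipc-1* were among the 12 largest increases. *sss-1* rose 3.87-fold on vehicle and 6.68-fold under TM. The next 4 were named after their values were seen, and how many sperm genes outside the lists did not rise was not counted. These were *spch-2*, which encodes a sperm chromatin protein (4.24-fold and 5.84-fold), *smz-1*, which encodes a sperm PDZ protein (2.68-fold and 3.55-fold), *spe-18* and *gipc-2*. *spe-18*, listed as *F32A11.3*, had a difference of 0.56 log2 units with 1 WT TM library, replicate 4, at 87 normalized counts against 8.9 to 20 in the others. *gipc-1* and *gipc-2* rose 4.70-fold and 4.1-fold on vehicle and 6.55-fold and 5.76-fold under TM.

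In whole animals more cells of a type and more RNA per cell cannot be told apart. Summed over the 10 *msp-* genes listed, the normalized count was 808 to 1287 in WT vehicle, 3419 to 5699 in *osm-3* vehicle, 692 to 992 in WT TM and 2987 to 6464 in *osm-3* TM libraries. Summed over the 21 genes of the sperm list that were listed, the genotypes overlapped, at 13210 to 20560 in WT and 14764 to 17270 in *osm-3* libraries on vehicle and 14967 to 17740 against 16030 to 20574 under TM. *clec-63*, which did not pass the threshold, made up 78.6% of that sum. Of 21 tested genes of the oocyte and germline list, 1 fell, 20 did not pass the threshold and none was shared (median −0.13 log2 units, by limma), while 4 were lower at an unadjusted p under 0.05.

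**Figure D2:**
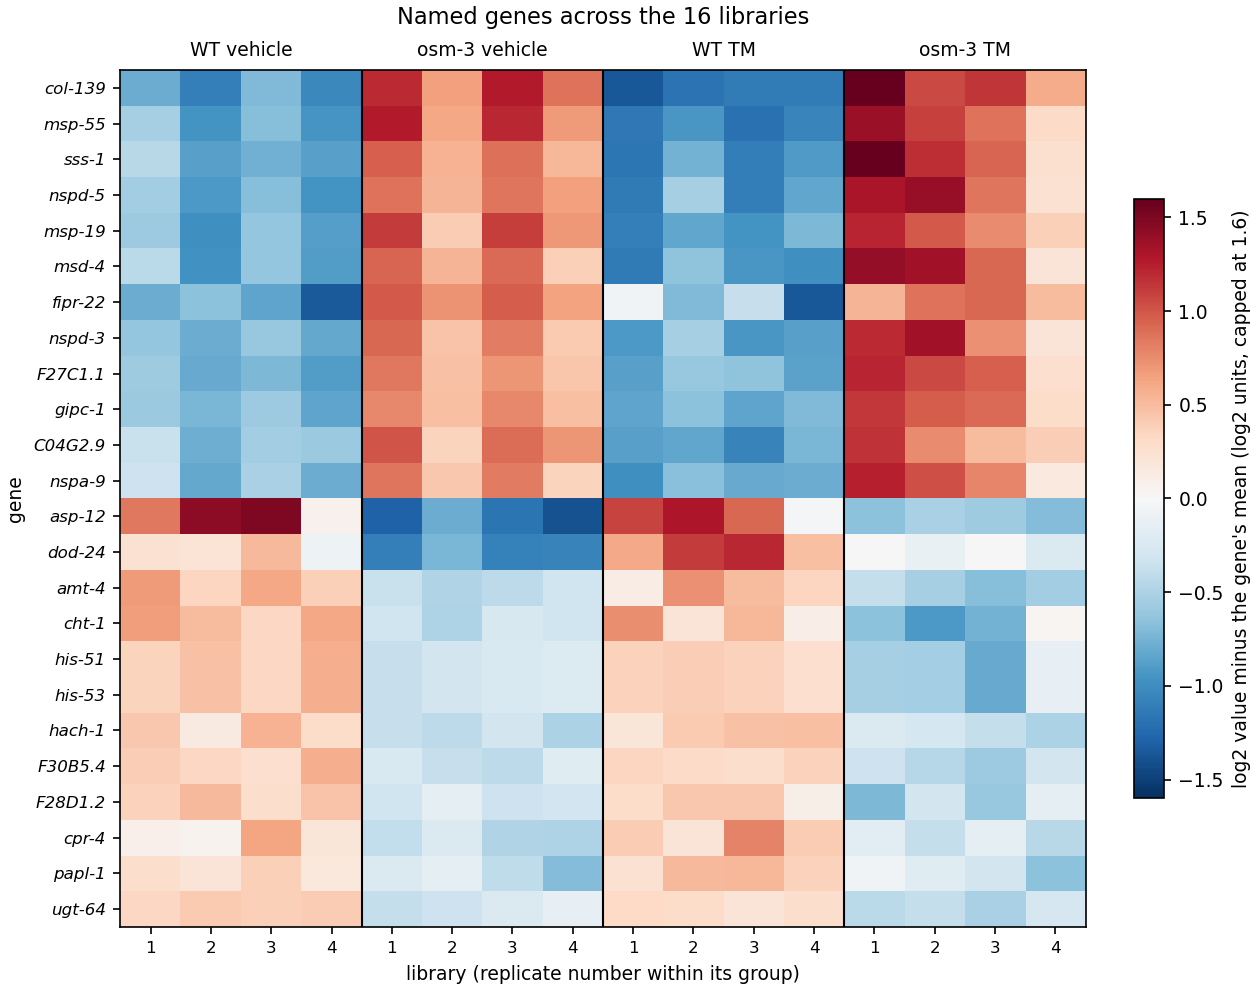
Rows are the 12 shared genes with the largest increase and the 12 with the largest decrease among those whose libraries did not overlap in either treatment, columns are the 16 libraries by group, and colour is the log2 value minus the gene's mean over the libraries (red above, blue below). Every *osm-3* library lies on the other side of the WT libraries of its treatment in every row, as the choice of genes requires. *osm-3* TM replicate 4 is paler than the other *osm-3* TM libraries in the sperm genes.

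The collagen gene *col-139* (V:4652863 to 4653971), which encodes a structural protein of the cuticle, had the largest difference among the shared genes (2.10 ± 0.13 log2 units, adjusted p = 4.2e-09). It had 4953, 4006, 5268 and 4183 normalized counts in WT vehicle libraries and 20237, 13885, 21363 and 16211 in *osm-3* vehicle libraries. Under TM the values were 3311, 3732, 3940 and 3930 in WT and 27458, 18369, 19519 and 13281 in *osm-3* libraries. The folds were 3.89 and 5.27.

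Collagens as a family rose over both treatments, while the share that met the shared rule, 7.5%, was that of all genes tested. Of 40 *col-* genes tested, 35 rose and 1 fell (median 0.68 log2 units), 8 were higher on vehicle and 37 under TM, and 3 were shared, *col-139*, *col-161* (1.35-fold on vehicle and 1.77-fold under TM) and *col-150* (1.83-fold and 1.98-fold). None of the 6 body-shape collagens was shared, although 5 rose over both treatments. These genes varied between libraries of a group, as in *dpy-5*, named after its values were seen, which had 89, 21, 75 and 592 normalized counts in WT vehicle and 276, 601, 131 and 307 in *osm-3* vehicle libraries, where the groups overlapped.

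The peptide genes *nlp-29* and *nlp-31* were shared. *nlp-29* encodes an antimicrobial peptide that the epidermis makes after fungal infection or wounding. It had 111, 123, 124 and 84 normalized counts in WT vehicle and 383, 427, 420 and 365 in *osm-3* vehicle libraries, and 202, 252, 272 and 122 against 459, 600, 629 and 349 under TM. All *osm-3* libraries lay above the WT libraries of their treatment, by 3.60-fold and 2.40-fold. *nlp-31*, of the same peptide family, rose 2.64-fold and 1.74-fold, with overlap under TM.

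*fipr-22*, of a family named after fungus-induced proteins, rose 6.53-fold on vehicle, from 48 to 148 in WT to 599 to 802 in *osm-3* libraries. Under TM it rose 3.64-fold, from 46 to 304 to between 526 and 760. The other 4 *fipr-* genes tested did not pass the threshold. By contrast *nlp-27* and *nlp-28*, of the same peptide cluster as *nlp-29*, were not shared, and their interactions passed the threshold.

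*nas-9* (V:4836027 to 4840013), which encodes an astacin metalloprotease, differed by close amounts in both treatments. Its normalized counts were 130, 154, 158 and 140 in WT vehicle and 449, 397, 492 and 416 in *osm-3* vehicle libraries, and 163, 131, 162 and 136 against 521, 394, 526 and 461 under TM. The difference was 0.98 log2 units on vehicle and 1.05 under TM (interaction interval −0.16 to 0.30). The tyrosinase genes *tyr-1* (1.91-fold and 1.70-fold) and *tyr-4* (1.59-fold and 1.51-fold), named after their values were seen, also rose in both treatments.

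Within the machinery that OSM-3 belongs to, 2 genes of retrograde IFT were shared, both higher. IFT runs outward on kinesin-2 motors and back on cytoplasmic dynein-2. Of 13 tested genes of the cilia and IFT list, 3 rose, 2 fell and 2 were shared (median −0.05 log2 units). The shared part was 15.4%, against 7.46% of all genes tested. It counts *che-11*, which passed the filter only through its *osm-3* libraries, so the share is not evidence about the list. The list has 70 genes, of which 34 were among the values.

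*che-3*, the dynein-2 heavy chain (I:8062007 to 8081671), had 64, 100, 52 and 72 normalized counts in WT vehicle and 244, 323, 282 and 336 in *osm-3* vehicle libraries. Under TM it had 93, 83, 73 and 91 in WT and 318, 205, 294 and 322 in *osm-3* libraries. The groups did not overlap and differed 4.1-fold and 3.36-fold (0.98 ± 0.07 log2 units, adjusted p = 1.2e-08).

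*che-11*, a subunit of the IFT-A complex used in retrograde transport, rose 3.68-fold on vehicle, from 18 to 31 in WT to 76 to 91 in *osm-3* libraries. Under TM it rose 2.9-fold, from 25 to 55 to between 68 and 114. Its WT means, 7.34 log2 units on vehicle and 7.49 under TM, lay less than 1 log2 unit above the table's minimum of 6.68. It therefore entered the tests through its *osm-3* libraries. *ifta-1*, the other IFT-A gene tested, was at 0.10 log2 units and did not pass the threshold. The genes of the other kinesin-2 motor stayed under the threshold, with differences of −0.04 for *klp-11* and −0.05 for its associated protein *kap-1*. The next 4 genes were named after their values were seen. *che-10*, the rootletin gene, rose by 0.23 (adjusted p = 0.032, and 0.11 with the pairs as a replicate block with an estimated correlation). *dyf-3* fell by 0.33, as did *peli-1* by 0.20, and neither was shared. The RFX factor *daf-19*, which drives ciliary genes, was at −0.17 without passing the threshold.

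**Figure D3:**
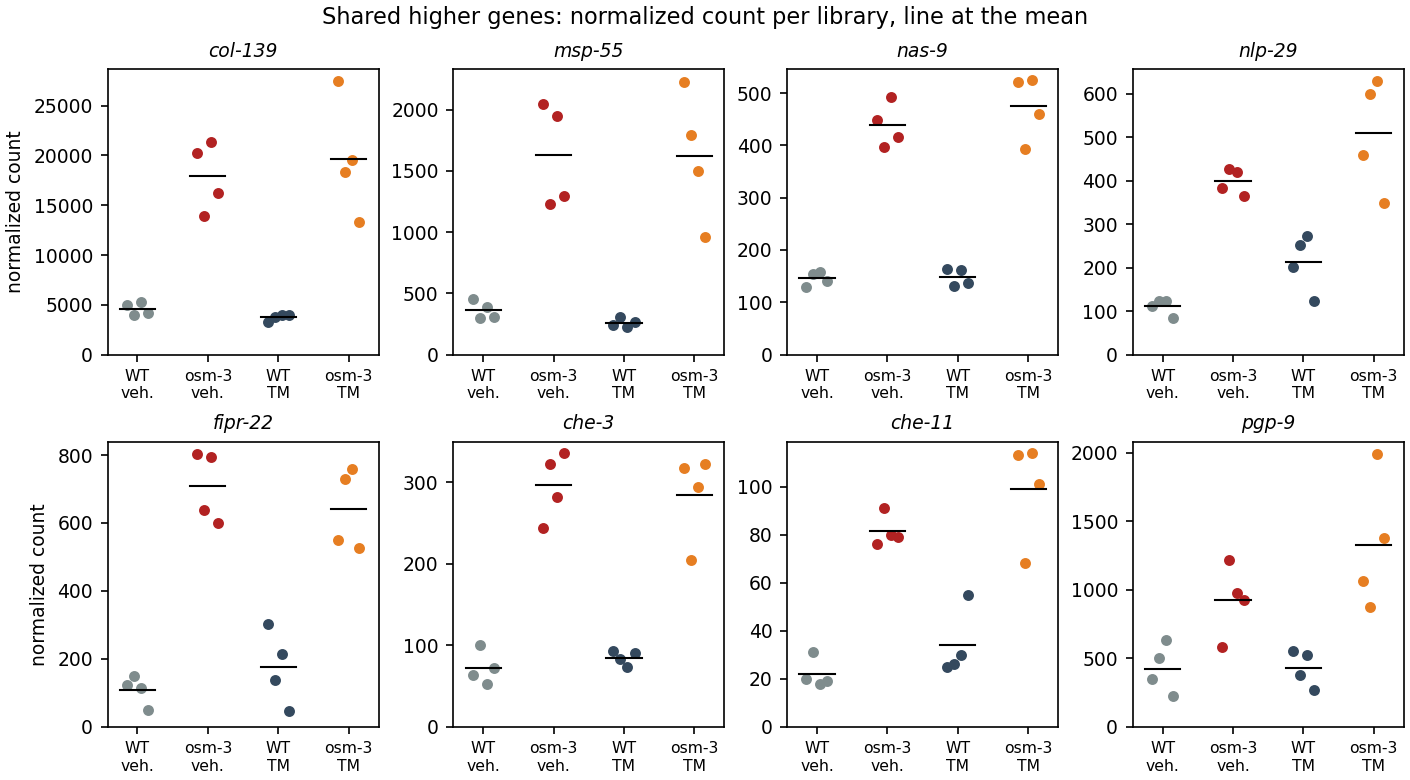
Each panel is a shared gene that was higher in *osm-3* mutants, with the normalized count (reads divided by the size factor, axis from 0) of each of the 4 libraries per group as points and the group mean as a line. WT and *osm-3* libraries of a treatment are apart in 7 of the 8 genes, with *pgp-9* the exception on vehicle, where the highest WT library (630) lies above the lowest *osm-3* library (582). For *col-139*, *msp-55* and *fipr-22* this was a condition of their choice.

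P-glycoproteins (PGPs) are ATP-driven pumps that move drugs and toxins out of cells, and the study examined them in *osm-3* mutants. Of 9 *pgp* genes tested, 4 rose, 5 did not pass the threshold and 2 were shared (22.2%, against 7.46% of all genes tested). The median over the 9 was 0.09 log2 units.

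*pgp-9* (V:17755892 to 17764751) had 348, 500, 630 and 221 normalized counts in WT vehicle and 582, 1217, 978 and 927 in *osm-3* vehicle libraries, and 556, 380, 521 and 268 against 1063, 871, 1993 and 1375 under TM. The vehicle groups overlapped by 1 library and the TM groups did not. It rose 2.18-fold and 3.07-fold (1.09 ± 0.17 log2 units, adjusted p = 0.00012). The interaction interval, −0.34 to 1.1 log2 units, was wider than the difference itself.

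*pgp-14* rose 2.01-fold and 2.26-fold, from 117 to 158 in WT to 196 to 355 in *osm-3* libraries on vehicle and from 92 to 135 to between 172 and 351 under TM, without overlap. *pgp-2* (0.26 log2 units) and *pgp-4* (0.17) rose over both treatments but were not shared. For *pgp-4* the adjusted p was 0.0053, and 0.055 with 1 mean per pair. *pgp-5* (−0.19), *pgp-11* (−0.08), *pgp-12* (−0.03), *pgp-13* (0.06) and *pgp-10* (0.09) did not pass the threshold, and *pgp-1* and *pgp-3* were not analysed here. In *osm-3* mutants without TM, the paper reported a rise of *pgp-13*, *pgp-11*, *pgp-5* and *pgp-3* by quantitative PCR, another measure of RNA. The values just given are over both treatments, so the vehicle libraries alone are the closer comparison. On vehicle *pgp-5* (−0.21 log2 units), *pgp-11* (−0.14) and *pgp-13* (0.03) did not pass the threshold either. The reason for the difference from the paper was not tested.

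*nhr-8* encodes a nuclear hormone receptor of the xenobiotic and sterol response, which the study also examined. Its values were 341, 343, 471 and 283 normalized counts in WT vehicle and 292, 341, 231 and 248 in *osm-3* vehicle libraries, and the groups overlapped in both treatments. The difference of −0.21 log2 units had an adjusted p of 0.048, and of 0.12 with pairs correlated and 0.13 with 1 mean per pair. It was not shared.

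*daf-36* encodes the Rieske oxygenase that converts cholesterol in the first step of dafachronic acid synthesis. It was shared, with 532, 471, 735 and 507 normalized counts in WT vehicle and 340, 361, 315 and 310 in *osm-3* vehicle libraries, and 407, 729, 771 and 576 against 330, 399, 405 and 316 under TM. The groups did not overlap, and it was 1.69-fold and 1.71-fold lower (−0.54 ± 0.09 log2 units, adjusted p = 0.0002). It was named after its values were seen. *daf-12*, the receptor for dafachronic acids, was at 0.12 and *ncr-1*, a sterol transporter, at 0.03 log2 units, both also named after their values were seen, and neither passed the threshold.

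Among other detoxification genes, UDP-glucuronosyltransferases (*ugt-*) attach sugars to lipophilic compounds. Of 25 tested, 9 rose and 3 fell, with 3 shared (12%, against 7.46% of all genes tested). *ugt-64* was 1.79-fold and 1.86-fold lower, and *ugt-42* (1.5-fold and 1.90-fold) and *ugt-66*, listed as *C23G10.6* (2.39-fold and 2.36-fold), were higher. None of 21 *cyp-* and none of 5 *gst-* genes tested was shared. Of 16 other ABC transporter genes, *pmp-1*, a transporter of the peroxisome, was lower (1.54-fold and 1.41-fold) and *cft-1* higher (1.67-fold and 1.64-fold).

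**Figure D4:**
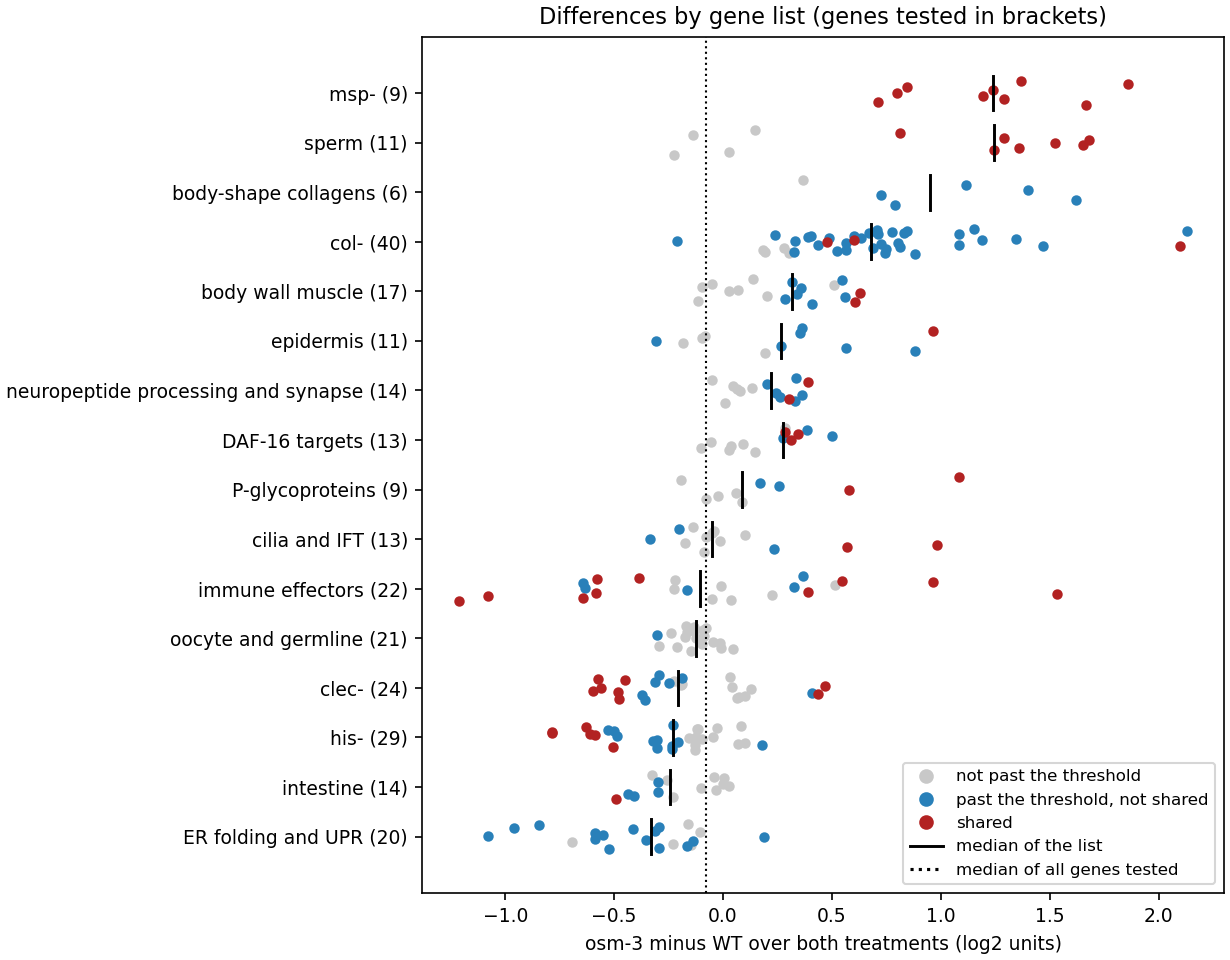
Each row is a gene list or family with the number of genes tested, and each point is a gene at its difference *osm-3* minus WT over both treatments in log2 units (grey not past the threshold, blue past it but not shared, red shared). The short line is the median of the list and the dotted line the median of all genes tested (−0.08). Shared genes fill the *msp-* row, lie on both sides in the immune list, and are absent from the body-shape collagens, the oocyte and germline list and the ER list.

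Immune effector genes moved in both directions. Of 22 tested, 6 rose and 9 fell, and of the 10 shared 4 were higher (*fipr-22*, *nlp-29*, *nlp-31* and *irg-2*) and 6 lower (*C17H12.8*, *dod-24*, *dod-20*, *ilys-5*, *spp-18* and *spp-8*). *dod-24* and *C17H12.8* encode proteins with CUB-like domains that respond to infection in the intestine. *ilys-5* encodes an invertebrate lysozyme and *spp-18* and *spp-8* saposin-like proteins.

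*dod-24* had 395, 387, 514 and 281 normalized counts in WT vehicle and 70, 126, 73 and 74 in *osm-3* vehicle libraries, and 558, 870, 939 and 497 against 310, 271, 305 and 239 under TM. It was 4.59-fold and 2.55-fold lower. *C17H12.8* was 3.24-fold and 2.09-fold lower, with 1 library of overlap in each treatment, since WT replicate 4 (1138 on vehicle and 2327 under TM) lay below *osm-3* vehicle replicate 2 (1213) and *osm-3* TM replicate 3 (2443). Both genes were higher under TM than on vehicle in each genotype's mean, and the genotype difference was present at each level.

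C-type lectin genes (*clec-*), many of which are induced by bacteria, fell in the larger part of the calls. Of 24 tested, 12 fell and 3 rose (median −0.21 log2 units), and 6 of the 8 shared were lower. *clec-66* (2.9-fold and 1.97-fold lower), *clec-5* (2.09-fold and 2.07-fold) and *clec-266* (2.01-fold and 2.24-fold) did not overlap between the genotypes. *clec-41* (1.62-fold and 1.53-fold) did.

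*pmk-1* encodes the p38 MAP kinase of the immune pathway. It was lower in both treatments, with 620, 700, 613 and 682 normalized counts in WT vehicle and 529, 571, 481 and 506 in *osm-3* vehicle libraries, and 676, 729, 677 and 688 against 515, 528, 450 and 488 under TM. The groups were apart, at 1.25-fold and 1.4-fold (−0.31 ± 0.05 log2 units, adjusted p = 9.4e-05). It was the 1 shared member among 13 tested genes of the p38 pathway list, of which 1 rose (*vhp-1*) and 3 fell (*pmk-1*, *pmk-2* and *rab-1*). That shared part, 7.69%, was close to the 7.46% of all genes tested. *zip-8*, a bZIP factor gene named after its values were seen, was 2.13-fold and 2.39-fold lower. Of 6 *pals-* genes tested, a family induced by intracellular pathogens, 5 rose and 2 were shared, *pals-32* (2.87-fold and 1.84-fold) and *pals-15* (1.89-fold and 1.67-fold).

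The largest decrease was that of *asp-12* (V:8269210 to 8272056), an aspartyl protease gene. It had 2223, 3449, 3604 and 1226 normalized counts in WT vehicle and 366, 586, 415 and 331 in *osm-3* vehicle libraries, and 2654, 3100, 2352 and 1121 against 668, 754, 720 and 644 under TM. Replicate 4 was the lowest WT library in both treatments. The folds were 6.18 and 3.31 (−1.77 ± 0.21 log2 units, adjusted p = 3.2e-06). The cathepsin B gene *cpr-4* was 1.6-fold and 1.71-fold lower, and all 3 *cpr-* genes tested fell.

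*hach-1* (III:5555450 to 5557318) encodes a hydroxyacyl-CoA hydrolase of the propionate shunt, which breaks down propionate when vitamin B12 is low. It had 5170, 4191, 5673 and 4700 normalized counts in WT vehicle and 2874, 2771, 3057 and 2606 in *osm-3* vehicle libraries, and 4349, 5128, 5289 and 5363 against 3195, 3075, 2849 and 2594 under TM. It was 1.75-fold and 1.72-fold lower, with an interaction interval of −0.30 to 0.32 log2 units.

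*acdh-1*, the acyl-CoA dehydrogenase of the same shunt, was 1.38-fold and 1.45-fold lower, without overlap. The ammonium transporter gene *amt-4* fell to 198 to 239 from 476 to 646 on vehicle and to 154 to 222 from 379 to 671 under TM, which was 2.53-fold and 2.80-fold. *folt-2*, a folate transporter family member named after its values were seen, was 1.43-fold and 1.53-fold lower. Of 25 tested genes of the peroxisomal beta-oxidation list, 4 rose and 3 fell. The list also holds other lipid genes, such as *elo-2*, which fell, *fat-7* and *lbp-1*, so its counts do not describe that pathway alone. The 2 shared were higher, *acox-1.3*, an acyl-CoA oxidase (1.80-fold and 1.49-fold), and *acs-2*, a fatty acyl-CoA synthetase (2.20-fold and 1.6-fold). That shared part, 8%, was close to the 7.46% of all genes tested. *pgph-3*, listed as *C53A3.2*, a phosphoglycolate phosphatase homolog named after its values were seen, rose from 767 to 1137 to between 2259 and 3396 on vehicle, 2.98-fold, and 2.63-fold under TM.

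**Figure D5:**
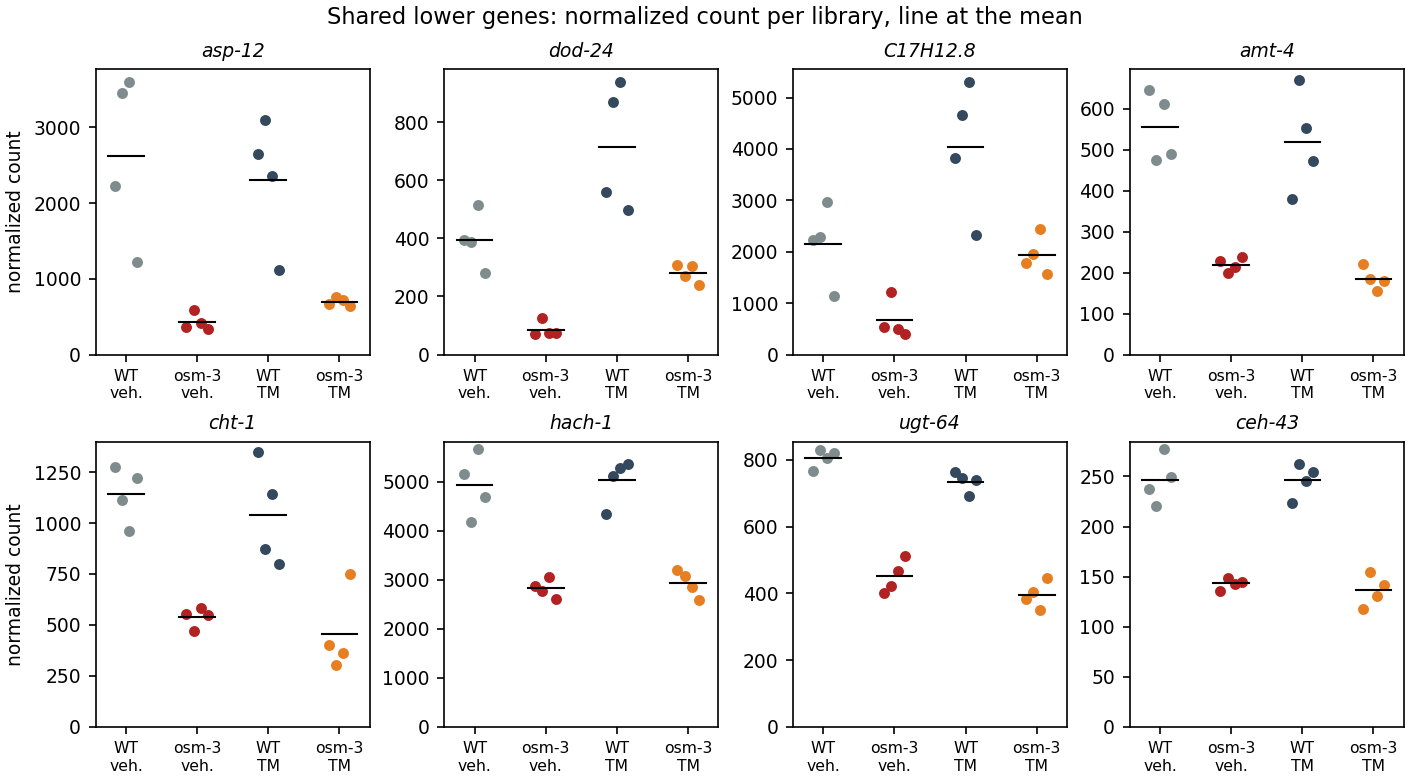
Each panel is a shared gene that was lower in *osm-3* mutants, with the normalized count (axis from 0) of each of the 4 libraries per group as points and the group mean as a line. The WT and *osm-3* libraries of a treatment are apart in every gene but *C17H12.8*. For all of these but *ceh-43* this was a condition of their choice. In *hach-1* and *ceh-43* the vehicle and TM means of a genotype lie at nearly the same level.

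The chitinase genes *cht-1* and, named after its values were seen, *cht-3* were lower in both treatments. *cht-1* had 1274, 1113, 963 and 1223 normalized counts in WT vehicle and 552, 470, 584 and 550 in *osm-3* vehicle libraries. Under TM it had 1348, 872, 1143 and 799 in WT and 400, 305, 361 and 749 in *osm-3* libraries, so *osm-3* TM replicate 4 lay close below the lowest WT library. The folds were 2.12 and 2.29.

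Histone genes fell in part. Of 29 *his-* genes tested, 16 fell and 1 rose (median −0.23 log2 units), and the 6 shared were all lower. *his-51* and *his-53* had the same value in every library and count as 1 observation, at 1.72-fold and 1.89-fold lower. *his-7* (1.51-fold and 1.68-fold) and *his-50* (1.54-fold and 1.62-fold) were close to them, and near-identical histone copies share reads.

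The next 6 genes were picked because they were lower, after their values were seen, and stand for no class of genes. *ceh-43*, a Distal-less homeobox gene, had 238, 221, 277 and 249 normalized counts in WT vehicle and 136, 149, 143 and 145 in *osm-3* vehicle libraries, and 224, 262, 245 and 254 against 118, 155, 131 and 142 under TM. The groups were apart, at 1.72-fold and 1.80-fold. The forkhead genes *fkh-3* (2.04-fold and 2.29-fold) and *fkh-4* (2.59-fold and 2.53-fold), the gap junction genes *inx-2* (1.84-fold and 2.00-fold) and *inx-3* (1.56-fold and 1.75-fold) and *vet-2*, an early embryonic transcript (1.45-fold and 1.41-fold), fell too.

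Of the lists of tissue markers, body wall muscle had 9 of 17 tested genes higher (median 0.32 log2 units), with *tni-1*, a troponin I (1.5-fold and 1.96-fold), and *dim-1* (1.49-fold and 1.70-fold) shared. Of 14 neuropeptide processing and synapse genes 8 rose (median 0.22), with *unc-104*, the kinesin of synaptic vesicles (1.35-fold and 1.47-fold), and *egl-19*, a calcium channel subunit (1.38-fold and 1.46-fold), shared. Of 14 intestinal genes 5 fell and 9 did not pass the threshold (median −0.24), and *acdh-1* was the 1 shared. Of 11 epidermal genes 6 rose and 1 fell (median 0.27), and *nlp-29* was the 1 shared. The shared part was 11.8% in muscle, 14.3% in synapse, 7.14% in intestine and 9.09% in epidermis, against 7.46% of all genes tested.

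Members of these tissue lists also differed between the genotypes, and their part in the results above was not tested. Summed intestinal counts were 479801 to 533658 in WT vehicle and 370263 to 472395 in *osm-3* vehicle libraries, and 332441 to 483523 against 223568 to 412372 under TM. Summed muscle counts were 61499 to 91872 against 84514 to 109670 on vehicle and 60160 to 78962 against 74931 to 102440 under TM. The genotypes overlapped in both sums under TM and in the muscle sum on vehicle. *vit-5* (−0.33 log2 units) made up 52.6% of the intestinal sum and *mlc-2* (0.20) 27.2% of the muscle sum, and neither passed the threshold. None of 24 *rpl-* and 15 *rps-* ribosomal protein genes tested passed the threshold by limma, and 0 of either family had an unadjusted p under 0.05 or passed with voom.

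DAF-16 is the FOXO factor of insulin signalling. Of 13 of its targets tested, 6 rose and 7 did not pass the threshold (median 0.27 log2 units), and 3 were shared, *nnt-1*, a mitochondrial transhydrogenase (2.13-fold and 1.6-fold), *hil-1*, a linker histone (1.72-fold in each), and *sdz-8* (1.73-fold and 1.79-fold). The shared part was 23.1%, against 7.46% of all genes tested. It counts *sdz-8*, which passed the filter only through its *osm-3* libraries, so the share is not evidence about the list. *hil-1* met the shared rule in 14 of 30 alternatives, and *nnt-1* and *sdz-8* missed it in 7 each. *akt-2*, a kinase gene of the insulin pathway named after its values were seen, rose 1.85-fold and 1.33-fold.

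Other families and single genes of the rule held smaller or single members. Among 43 nuclear hormone receptor genes tested, 16 rose and 6 fell, and the 4 shared were *nhr-156* (2.08-fold and 1.73-fold higher), *nhr-107* (1.62-fold and 1.44-fold higher), *nhr-47* (1.53-fold and 1.51-fold lower) and *nhr-20* (1.37-fold and 1.32-fold lower). Their shared part was 9.3%, against 7.46% of all genes tested. *ttr-18*, a transthyretin-related gene (1.61-fold and 1.76-fold), *pqn-31* (1.58-fold and 1.82-fold), *tag-38* (2.41-fold and 3.37-fold), *unc-96*, a muscle M-line gene (1.49-fold and 1.4-fold), *lgc-22* (1.62-fold and 1.58-fold) and *oac-6* (1.68-fold and 1.84-fold) were higher. *math-14* (2.47-fold and 2.09-fold), *math-4* (1.57-fold and 1.38-fold), *fbxa-153* (1.57-fold and 1.43-fold), *sdz-4* (1.68-fold and 1.81-fold) and *gcy-11*, a receptor guanylate cyclase gene (1.75-fold and 1.43-fold), were lower.

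Of the remaining genes among the 12 largest changes in each direction, *F27C1.1* rose 5.02-fold and 6.58-fold, *C04G2.9*, also called *nsph-3.2*, 4.00-fold and 6.03-fold, and *nspa-9* 3.60-fold and 5.75-fold. *F30B5.4*, also called *osgn-1*, was 1.97-fold and 2.07-fold lower, *F28D1.2*, also called *atz-1*, 1.90-fold and 2.07-fold, and *papl-1* 1.67-fold and 1.77-fold.

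By position, 3.85% of genes tested on chromosome III were shared and 9.42% on chromosome IV, which carries *osm-3*, with 8.56% on V and 9.16% on X. On X 38 of 59 shared genes were lower, while on the other 5 chromosomes the higher genes were more numerous. Within 1 Mb of *osm-3* (IV:3796300 to 3801052) 3 of 49 genes tested were shared (6.12%), and within 5 Mb 35 of 349 (10.0%), 22 higher and 13 lower.

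The ER genes show what the shared group did not contain. Of 20 tested genes of the ER folding and unfolded protein response list, 14 fell over both treatments and 1 rose. None was shared, and the interaction passed the threshold in 7 of them. The list was chosen with earlier results of these data known. It includes *ckb-2*, *gale-1* and *srp-7*, whose interactions (−2.14, −1.53 and −1.47 log2 units) were the largest that passed the threshold. Its interaction count and its lack of shared genes are therefore not independent of the data. *hsp-4*, the BiP chaperone, had 5537, 5417, 4950 and 6340 normalized counts in WT vehicle and 4837, 4411, 4947 and 5936 in *osm-3* vehicle libraries, which overlapped, but 13208, 10177, 11199 and 11274 against 6366, 5149, 4267 and 6382 under TM. *pdi-6*, named after its values were seen, was lower in both treatments (1.5-fold and 2.72-fold), with an interaction of −0.83 log2 units.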

How the data were processed

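RNA was sequenced from 16 whole-animal libraries. The authors mapped reads with kallisto 0.43.0-1 to Ensembl release 94 cDNA, added them up by gene and used DESeq2 1.16.1 to make the log2 values that were deposited, on a variance-stabilized scale (versions from the submitters' processing notes). Their 4 tables of comparisons (mean normalized count, fold change, SE, statistic, p-values) were not used. Inverting the transformation gave reads, 100% within 0.01 of a whole number, on 7653 of 19985 annotated protein-coding genes. Reads without a gene name (0.177% to 0.531%) were left out of the tests. Of the 8348 entries, 8066 were matched to Ensembl annotation 115. Alignment estimates split reads between near-identical copies.

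Tests used limma 3.58.1 (eBayes with trend) in R 4.3.3, two-sided, on 4115 genes, adjusted by Benjamini-Hochberg, with an additive model for the genotype effect and 4 group means for the contrasts. They were tested on simulated data with independent libraries, which cannot show the effect of correlated pairs. Same-numbered vehicle and TM libraries of a genotype correlated (0.25 to 0.86), and those of WT and *osm-3* animals at 0.18 to 0.50 on vehicle and −0.04 to 0.64 under TM. The labels say biological replicates.

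Genes were named by rule: the 12 largest shared increases and the 12 largest shared decreases whose libraries did not overlap, up to 4 shared members of each list, list genes the study examined, and, among genes whose interaction passed the threshold, the 5 with the largest. Others are marked as named after their values were seen, apart from list members given only to account for a list. Members and lists were chosen with earlier results of these data known. No promoter or protein sequence was analysed here, so the planned motif counts were not run.

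Other settings tried were averaged contrasts, a stricter filter (3 log2 units) and none, 3 forms of replicate block, eBayes without trend, robust eBayes, library weights, quantile normalization, median centring, log2 of the normalized count plus 1, voom on recovered reads, a length correction (4057 genes with a length), leaving out each library, and leaving out both TM libraries numbered 4, which was chosen after seeing the data. Figures were drawn with matplotlib.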

Additional observations from a re-analysis of the deposited data

Results flagged for a closer look

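Of 112 sets of 4 libraries examined (4 library measures and the 24 genes at the top, each in 4 groups), 6 held a library far from the other 3, and chance gives about 1 in 20. *osm-3* vehicle replicate 3 had 4173301 reads on named genes. In WT TM replicate 2 the 10 largest genes took 12.2% of the reads. WT TM replicate 4 had 5.53 reads per gene on genes low in all other libraries. *nspd-3* stood at a log2 value of 8.4 in WT TM replicate 2, *dod-24* at 8.21 and *F28D1.2* at 9.16 in *osm-3* vehicle replicate 2.

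Among the 20 genes whose interaction passed the threshold by limma, these 5 had the largest difference between the genotype difference under TM and that on vehicle. Genes that did not pass could lie further, such as *dpy-5* (1.82, adjusted p = 0.41). The difference of differences was −2.14 log2 units for *ckb-2* (0.38 on vehicle and −1.76 under TM, adjusted p = 1e-06), −1.53 for *gale-1* (−0.32 and −1.84, adjusted p = 4.3e-06), −1.47 for *srp-7* (−0.11 and −1.58, adjusted p = 0.0016), 1.36 for *nlp-27* (−0.17 and 1.2, adjusted p = 0.0069) and −1.13 for *nlp-28* (−0.08 and −1.21, adjusted p = 0.00048).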

How the results depend on the processing

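The genotype effect passed in 1250 genes, and in 1880 without a filter, 335 with a filter at 3 log2 units, 2202 with library weights, and, with a replicate block, 761 with correlated pairs and 673 with pair means. Leaving out 1 library gave 1023 to 1496. The shared count of 307 became 509 without a filter, 39 with a filter at 3 log2 units (which tested 54 of the 307), 760 with library weights (211 of the 307 among them) and 496 with the number as a fixed replicate block (297 among them), and 235 to 320 without 1 library. The causes were not tested, except that the strict filter tests fewer genes. The weights reached 5.11 in *osm-3* vehicle replicate 1, 4.88 in *osm-3* TM replicate 1 and 4.72 in WT vehicle replicate 1, against at most 1.65 elsewhere. Of the 307, 113 met the shared rule in every one of the 31 alternatives that tested them. Where tested, all 307 kept the genotype effect in these alternatives, which the rule partly fixes, since it asks for both within-treatment calls. None of the 107 shared genes examined singly reversed or lost the genotype effect, but 75 of them missed the shared rule in at least 1 alternative. Of the 30 other genes examined, 11 changed sides of the threshold in at least 1 alternative, such as *nhr-8* (−0.31 to −0.14 log2 units). Medians changed sign in at least 1 alternative in 11 of 51 lists, such as cilia and IFT (−0.10 to 0.01). At 4 libraries a group, a median interaction half-width of 0.29 log2 units limits any statement of equal differences.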
